A study of Rattus norvegicus with 16 samples.

Results

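The 8 genes described here are markers of circulating monocytes or molecules of leukocyte adhesion: Ccr2, Itga4, Itgal, Cd44, Icam1, Vcan, Fn1 and Plac8. They were chosen by name from 21842 gene symbols, and each is carried by 1 of the 30560 Ensembl gene identifiers counted. RNA-seq had been run on 16 libraries of sorted microglia from whole brains of male Wistar (Hsd/Cpb:WU) rats, the cells being DAPI negative, high in CD11b and intermediate in CD45. The 4 groups of 4 libraries were sham irradiation then PBS (sham PBS), sham irradiation then lipopolysaccharide (sham LPS), X-rays at 14 Gy then PBS (irradiated PBS) and X-rays at 14 Gy then LPS (irradiated LPS). PBS or LPS was injected into the peritoneum 6 weeks after the irradiation or sham procedure, and all groups share the strain, the sex and the sort gate. LPS is a bacterial cell wall component that activates Toll-like receptor 4. The sources used here do not give age, LPS dose or the interval from injection to cell isolation. The labels call the libraries of a group separate samples but do not tie them to animals, so every p-value refers to the variation among these samples, part of which may be technical.

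Classical monocytes leave the blood in steps. Chemokine receptors such as CCR2 sense CCL2 and CCL7. Integrins then bind ligands of the immunoglobulin family on the vessel wall, ITGAL pairing with ITGB2 to bind ICAM1 and ITGA4 pairing with ITGB1 or ITGB7 to bind VCAM1 and fibronectin. CD44 binds hyaluronan, the sugar chain with which the proteoglycan versican forms pericellular coats. In the healthy brain Ccr2, Itga4 and Itgal are known mainly from blood-derived myeloid cells and lymphocytes. ICAM1 is known from vessels and is also induced on activated microglia. No single source is assigned here to the other members, which cells of the brain itself may also express. The sort gate separates microglia from cells with high CD45, but monocytes and macrophages that enter the brain can lower their CD45 into the gate. In bulk samples such as these, a change in the number of cells of a type and a change in RNA per cell cannot be told apart.

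The promoters of 2 members that rose after LPS in both sham and irradiated rats are shown because each holds a match to a binding motif of NF-kB, the transcription factor that LPS signalling activates. RefSeq windows on GRCr8 were found for 6 of the 8 members. The 250 bases before each annotated start were searched on both strands for GGAANTTCC (NF-kB, p65 type), for GGG and TTTCC with 2 free bases between them (NF-kB, p50 type) and for 4 other motifs, each counted separately although matches can overlap. Icam1 held GGAAATTCC at chr8:27829627-27829635, 218 to 210 bases before the start. That start lies inside the annotated gene span, which begins at chr8:27829688. Plac8 held the p50-type match GGAAAGGCCC at chr14:9356819-9356828, 131 to 122 bases before the start. Of 33469 windows of the same length from all genes, 0.669% held the p65-type motif and 1.30% the p50-type motif. Both stretches lie outside the annotated gene body on the plus strand, chr8:27829595-27829687 and chr14:9356800-9356949, and capitals mark the NF-kB match.
Icam1: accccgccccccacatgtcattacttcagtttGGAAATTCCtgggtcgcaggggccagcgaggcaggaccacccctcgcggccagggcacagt
Plac8: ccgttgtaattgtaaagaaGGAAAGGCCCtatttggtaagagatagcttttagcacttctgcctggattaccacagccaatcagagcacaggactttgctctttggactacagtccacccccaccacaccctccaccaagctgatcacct
The Icam1 window also held the STAT motif TTCNNNGAA, which 7.67% of all windows held, and the TATA box TATAAA, which 12.9% held. These STAT and TATA matches lie inside the annotated gene span. TGANTCA (AP-1, 6.34% of all windows) and GAGGAAG (PU.1, 10.2%) matched in none of the windows of members. None of the 6 motifs matched in the windows of Ccr2, Itga4, Cd44 and Vcan. The windows of Ccr2, Itga4 and Cd44 lie wholly inside the annotated gene span, so no bases upstream of that span were searched there. These are matches of letters, and factor binding was not measured.

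Total counts per library ran from 16849603 to 22482126 with sham PBS, from 16573558 to 19785105 with sham LPS, from 14309458 to 25015047 with irradiated PBS and from 18997145 to 62745496 with irradiated LPS. Levels are given as CPM, the usual scaling of counts to library size, with libraries matched by the trimmed mean of M-values (TMM), and they are compared between groups but not between genes, since no transcript lengths were used. Log2 fold changes with their standard errors come from edgeR's quasi-likelihood test, with p-values adjusted by Benjamini-Hochberg over 13608 genes, and a gene was called at an adjusted p below 0.05. Comparisons that use the same group share its libraries. The 2 irradiated libraries numbered 1 stood apart in cell markers. Irradiated LPS 1 held 2480 CPM summed over 16 neutrophil markers against 409 to 618 in the other 3 of its group, 127 against 12.3 to 29.5 over neuronal, 873 against 416 to 517 over oligodendrocyte and 147 against 9.62 to 24.3 over red cell markers. Irradiated PBS 1 held 87.6 CPM over neuronal markers against 14.9 to 41.3, and 793 over oligodendrocyte markers against 457 to 544.

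All 8 members passed the filter on low counts, and their responses fell into different patterns. Ccr2, Itga4 and Itgal were higher in irradiated than in sham libraries with either injection, and LPS lowered Ccr2 and Itga4 in sham rats. Icam1 and Plac8 rose 2.36-fold to 3.83-fold with LPS, and neither irradiation comparison called them. Cd44 and Vcan were higher after irradiation and higher after LPS, so that they stood highest in irradiated LPS libraries. Fn1 rose with LPS in both settings and with irradiation after PBS.

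**Figure D1:**
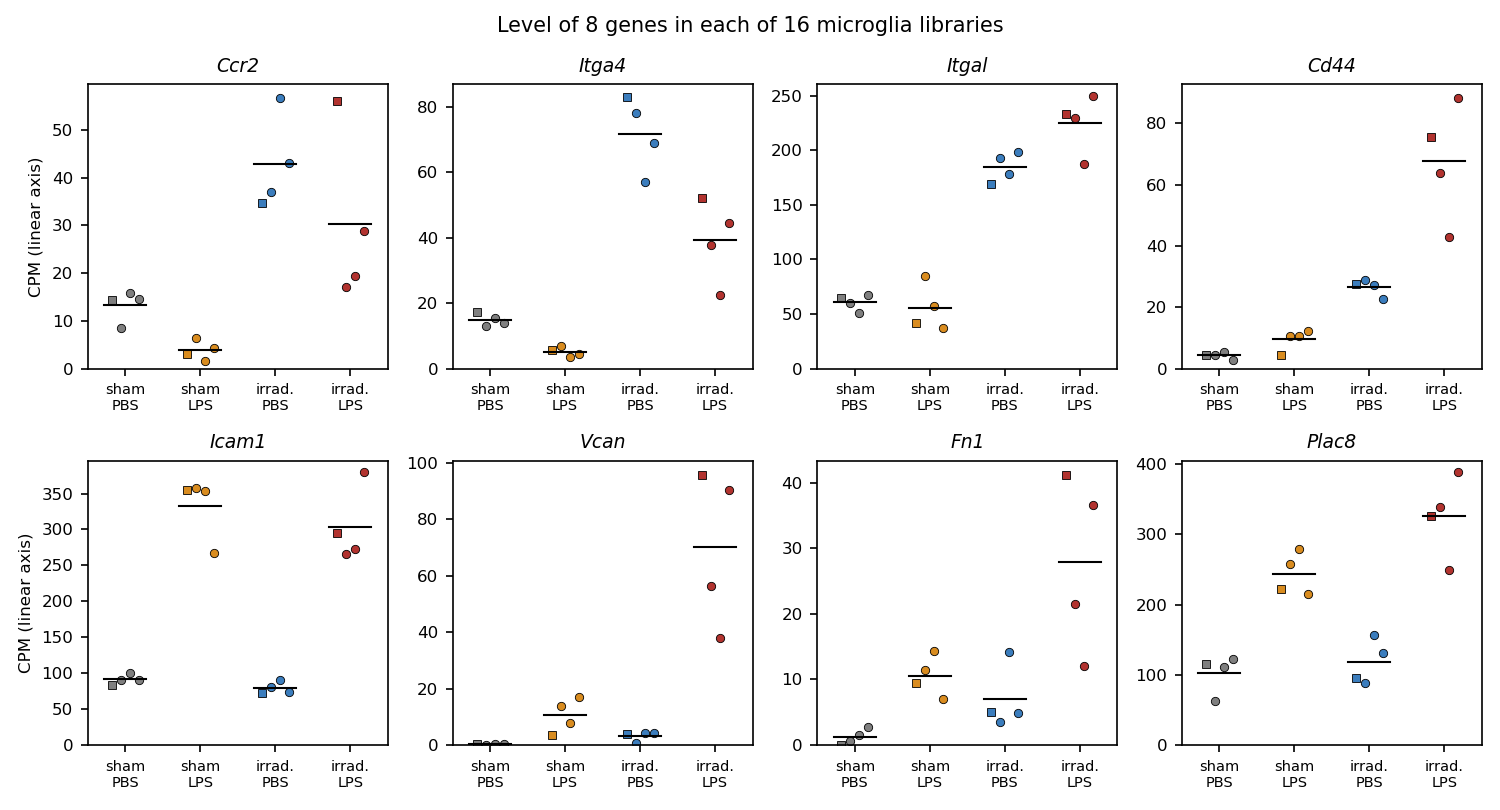
TMM-scaled CPM of the 8 members (vertical axes, linear, one panel per gene) in the 4 libraries of each group (horizontal axes); bars mark group means and squares the libraries numbered 1. Ccr2, Itga4 and Itgal are high in both irradiated groups, Icam1 and Plac8 in both LPS groups, and Cd44, Vcan and Fn1 have their highest means in the irradiated LPS group.

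Ccr2 (ENSRNOG00000063127), the receptor through which monocytes follow CCL2, stood at 14.4, 8.57, 15.9 and 14.7 CPM with sham PBS and at 3.03, 6.41, 1.55 and 4.24 CPM with sham LPS. With irradiated PBS it stood at 34.8, 37.0, 56.8 and 43.1 CPM, and with irradiated LPS at 56.1, 17.1, 19.4 and 28.8 CPM. The order of group means was sham LPS, sham PBS, irradiated LPS and irradiated PBS; only the last 2 neighbours overlapped. Irradiation raised Ccr2 3.21-fold with PBS (log2 fold change 1.68 ± 0.39 SE, n = 4 and 4, edgeR adjusted p = 0.00559) and 7.89-fold with LPS (2.98 ± 0.42, edgeR adjusted p = 6.88e-05). LPS lowered it 3.5-fold in sham rats (-1.81 ± 0.42, edgeR adjusted p = 0.00383). In irradiated rats the change with LPS was -0.51 ± 0.38 (edgeR adjusted p = 0.346), and it passed the test at -0.98 (adjusted p = 0.0361) once irradiated LPS 1, the highest of its group in Ccr2, was left out. With that library the irradiation effect under LPS was 2.98, and without it 2.51 (edgeR adjusted p = 5.61e-05).

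Itga4 (ENSRNOG00000004861), the alpha 4 integrin subunit, had the same order of groups. Its levels were 17.3, 13.0, 15.4 and 13.8 CPM with sham PBS and 5.64, 6.85, 3.67 and 4.57 CPM with sham LPS. After irradiation they were 82.8, 78.1, 56.9 and 68.8 CPM with PBS and 52.1, 37.7, 22.5 and 44.4 CPM with LPS. No 2 neighbouring groups overlapped. The rise with irradiation was 4.82-fold with PBS (2.27 ± 0.22, edgeR adjusted p = 1.06e-06) and 7.54-fold with LPS (2.91 ± 0.24, edgeR adjusted p = 8e-08). LPS lowered Itga4 2.87-fold in sham rats (-1.52 ± 0.23, edgeR adjusted p = 8.82e-05) and 1.83-fold in irradiated rats (-0.87 ± 0.21, edgeR adjusted p = 0.00416). Tested against a fold change of 1.5 in place of no change, the latter fall was no longer called (adjusted p = 0.219).

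Itgal (ENSRNOG00000017980), the alpha subunit of LFA-1, separated the libraries by irradiation alone. It stood at 64.96, 60.0, 51.3 and 67.3 CPM with sham PBS and at 41.3, 84.8, 57.7 and 37.2 CPM with sham LPS, which overlap. Irradiated libraries held 169, 193, 178 and 199 CPM with PBS and 233, 229.8, 187 and 249.5 CPM with LPS, which also overlap. Every irradiated library was above every sham library. The increase with irradiation was 3.03-fold with PBS (1.60 ± 0.19, edgeR adjusted p = 1.41e-05) and 4.07-fold with LPS (2.03 ± 0.20, edgeR adjusted p = 8.28e-07). LPS changed it by -0.14 ± 0.19 in sham rats and by 0.28 ± 0.19 in irradiated rats (edgeR adjusted p = 0.632 and 0.285). The sham value rests on single libraries: it was -0.42 (adjusted p = 0.0335) without sham LPS 2, the highest of its group, and 0.01 (adjusted p = 0.984) without sham LPS 4, the lowest.

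Cd44 (ENSRNOG00000006094), the hyaluronan receptor, stood at 4.38, 4.39, 5.43 and 2.87 CPM with sham PBS. With sham LPS it was at 4.49, 10.7, 10.7 and 12.3 CPM, 1 library lying within the sham PBS range. The irradiated libraries were at 27.7, 29.0, 27.2 and 22.6 CPM with PBS and at 75.6, 63.8, 43.0 and 88.4 CPM with LPS, apart from each other and from all sham libraries. Irradiation raised Cd44 6.22-fold with PBS (2.64 ± 0.28, edgeR adjusted p = 2.89e-06) and 7.08-fold with LPS (2.82 ± 0.27, edgeR adjusted p = 6.29e-07). LPS raised it 2.55-fold in irradiated rats (1.35 ± 0.26, edgeR adjusted p = 0.000588) and 2.24-fold in sham rats (1.16 ± 0.28, edgeR adjusted p = 0.00412). The sham call was lost with limma voom (1.05, adjusted p = 0.059) and in the test against a fold change of 1.5 (adjusted p = 0.0857).

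Icam1 (ENSRNOG00000020679), the ligand of LFA-1 whose promoter is shown above, separated the libraries by LPS alone. It was at 83.5, 90.9, 100.4 and 91.0 CPM with sham PBS and at 354, 358, 353 and 267 CPM with sham LPS. In irradiated rats it was at 71.9, 81.1, 90.2 and 74.3 CPM with PBS and at 295, 266, 273 and 379.9 CPM with LPS. All 8 LPS libraries were above all 8 PBS libraries, and sham and irradiated libraries overlapped within each injection. The rise with LPS was 3.64-fold in sham rats (1.86 ± 0.12, edgeR adjusted p = 4.86e-09) and 3.83-fold in irradiated rats (1.94 ± 0.12, edgeR adjusted p = 4.37e-09). Irradiation changed Icam1 by -0.20 ± 0.12 with PBS and by -0.13 ± 0.12 with LPS (edgeR adjusted p = 0.256 and 0.459).

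Vcan (ENSRNOG00000029212), the proteoglycan versican and an mRNA abundant in classical monocytes, was near the floor with sham PBS. Its counts there were 4, 0, 11 and 10, or 0.243, 0, 0.506 and 0.495 CPM; the count of 0 allows up to 0.150 CPM (3 counts, counting error only). Levels were 3.46, 13.9, 7.68 and 16.9 CPM with sham LPS, and 4.04, 0.555, 4.33 and 4.08 CPM with irradiated PBS, where library 2 rests on 10 counts. Irradiated LPS libraries held 95.8, 56.3, 37.7 and 90.2 CPM, each above every library of the other 3 groups. LPS raised Vcan in sham rats (5.03 ± 0.77, edgeR adjusted p = 0.000207) and in irradiated rats, there 21.3-fold (4.41 ± 0.61, edgeR adjusted p = 6.89e-05). Irradiation raised it 6.66-fold with LPS (2.73 ± 0.56, edgeR adjusted p = 0.00191) and by 3.35 ± 0.80 with PBS (edgeR adjusted p = 0.00774), a call that limma voom did not make (adjusted p = 0.163). Folds against sham PBS depend on few counts.

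Fn1 (ENSRNOG00000014288), the matrix glycoprotein fibronectin, had a wide spread between libraries. With sham PBS it stood at 0.0608, 0.648, 1.47 and 2.67 CPM, from 1, 13, 32 and 54 counts, and with sham LPS at 9.47, 11.5, 14.3 and 6.94 CPM. With irradiated PBS it stood at 5.10, 3.55, 14.2 and 4.96 CPM, and with irradiated LPS at 41.3, 21.5, 12.0 and 36.5 CPM. Sham PBS lay below all other groups, whereas the irradiated LPS range reached into those of sham LPS and irradiated PBS. LPS raised Fn1 8.49-fold in sham rats (3.09 ± 0.66, edgeR adjusted p = 0.0025) and irradiation raised it 5.60-fold with PBS (2.49 ± 0.66, edgeR adjusted p = 0.0131). The latter was not called against a fold change of 1.5 (adjusted p = 0.052). In irradiated rats LPS raised it 3.99-fold (2.00 ± 0.59, edgeR adjusted p = 0.0178), and this call was lost without irradiated PBS 1, 2 or 4 (adjusted p = 0.0502, 0.0553 and 0.0549), without both irradiated libraries numbered 1 (0.102) and against a fold change of 1.5 (0.0824). With LPS the irradiation effect was 1.40 ± 0.58 (edgeR adjusted p = 0.09), and it passed with limma voom (0.0168), in a fit of the compared groups only (0.022) and without sham PBS 1 (0.0421).

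Plac8 (ENSRNOG00000002217), a small cysteine-rich protein of myeloid and other leukocytes, followed LPS as Icam1 did. It was at 115, 62.7, 112 and 122 CPM with sham PBS and at 222, 257, 279 and 215 CPM with sham LPS. Irradiated libraries were at 95.7, 88.6, 156 and 131 CPM with PBS and at 326, 339, 249 and 388 CPM with LPS. All LPS libraries were above all PBS libraries. LPS raised Plac8 2.36-fold in sham rats (1.24 ± 0.21, edgeR adjusted p = 0.000336) and 2.76-fold in irradiated rats (1.46 ± 0.21, edgeR adjusted p = 6.09e-05). Irradiation changed it by 0.20 ± 0.21 with PBS (edgeR adjusted p = 0.564) and by 0.42 ± 0.21 with LPS (edgeR adjusted p = 0.153, or 0.0457 in a fit of the compared groups only).

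**Figure D2:**
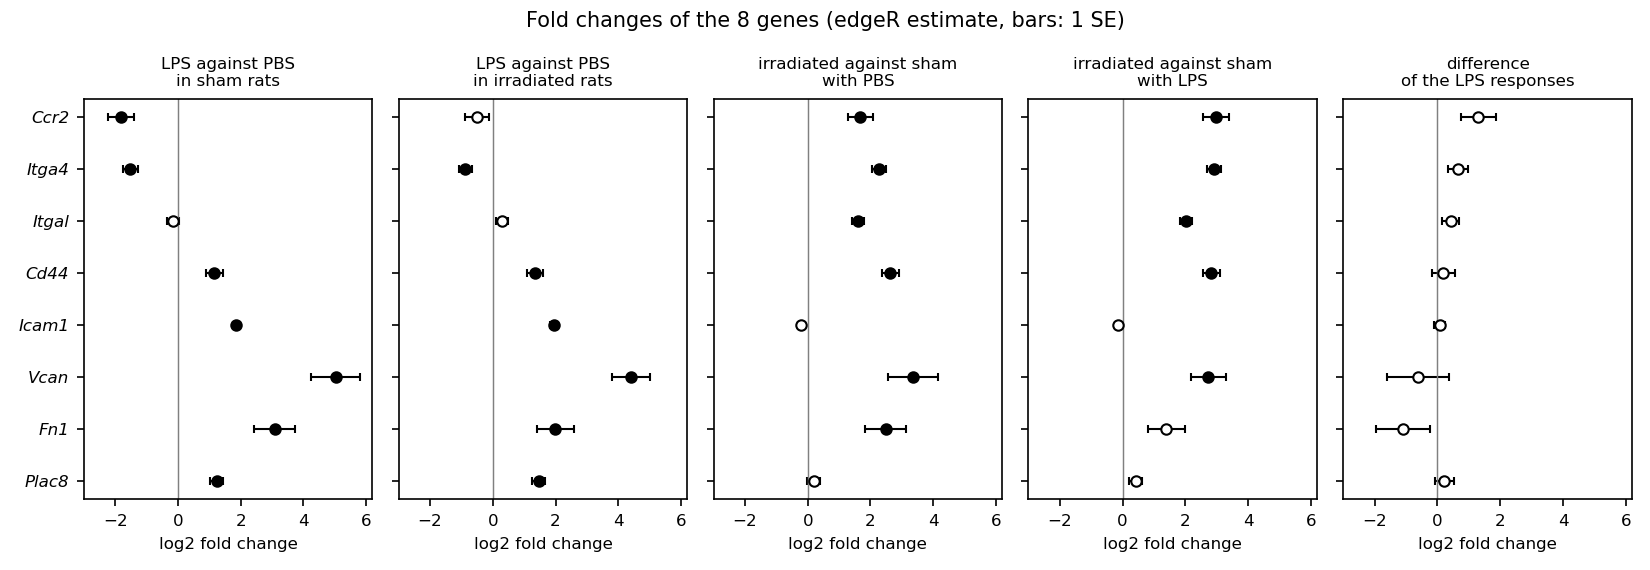
Log2 fold changes with standard errors (horizontal axis) of the 8 members in the 4 comparisons of groups and in the difference of the LPS responses; filled marks passed an adjusted p of 0.05. Ccr2 and Itga4 lie below 0 for LPS and above 0 for irradiation, while Icam1 and Plac8 lie above 0 for LPS and near 0 for irradiation.

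With LPS in sham rats, 5 of the 8 members were called higher (Cd44, Icam1, Vcan, Fn1 and Plac8), where 15.2% of all genes tested were, and 2 were called lower (Ccr2 and Itga4), where 14.5% were. Vcan and Fn1 met the count filter through other groups than sham PBS. In 6 members the sham PBS and sham LPS libraries did not overlap, as in 29.9% of all genes. The median log2 fold change was 1.20 over the members and -0.01 over all genes. In irradiated rats LPS raised the same 5 members, against 17.0% of all genes, and lowered Itga4, against 14.5%. There 5 members did not overlap between the groups, as in 32.3% of all genes, and the medians were 1.41 and -0.02.

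Irradiation with PBS raised 6 members (Ccr2, Itga4, Itgal, Cd44, Vcan and Fn1), against 11.5% of all genes, and lowered none, against 9.91%. Groups did not overlap in those 6, as in 26.7% of all genes, and the members' median was 1.97. Here too Vcan and Fn1 met the count filter through other groups than sham PBS. Being near the floor there, these 2 could hardly be called lower, which limits the counts of members raised, lowered and not overlapping. With LPS in both arms, irradiation raised Ccr2, Itga4, Itgal, Cd44 and Vcan, against 15.1% of all genes, and lowered none, against 12.6%. The same 5 did not overlap, as in 26.7% of all genes, and the median was 2.38 against 0.01 over all genes. No member was called lower in irradiated than in sham rats by edgeR, DESeq2 or limma voom in either setting, and by edgeR none was lower at an unadjusted p below 0.05.

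Whether irradiation altered the LPS response was tested as the difference of the 2 responses. By edgeR 0 of 8 members and 1.26% of all genes were called, and DESeq2 and limma voom also called 0 members. At an unadjusted p below 0.05 stood 1 member, against 1626 of the 13608 genes. That member was Ccr2, with a difference of 1.30 ± 0.56 on the log2 scale (edgeR adjusted p = 0.365), or 0.83 (adjusted p = 0.517) without irradiated LPS 1. The difference was 0.65 ± 0.31 for Itga4 and 0.42 ± 0.27 for Itgal (edgeR adjusted p = 0.434 and 0.602). It was 0.19 ± 0.38 for Cd44, 0.07 ± 0.17 for Icam1 and 0.22 ± 0.29 for Plac8. For Vcan and Fn1, whose sham PBS levels were near the floor, it was -0.61 ± 0.99 and -1.09 ± 0.86. The larger absolute rise of Cd44, Vcan and Plac8 in irradiated LPS libraries was thus not called as a larger fold change.

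Ligands and receptors of the chemokine axis were read beside Ccr2. The counts of calls in this and the following lists stand against the shares of all genes given above, and nothing particular to a list is read from them. Of 12 tested CCR2 ligands and other chemokine receptors, 4 were higher and 2 lower with LPS in sham rats, 4 and 1 with LPS in irradiated rats, 3 and 2 with irradiation under PBS, and 5 and 1 with irradiation under LPS. Ccl2, the main CCR2 ligand, was at 7.97 ± 3.01 CPM (SD, n = 4) with sham PBS and 60.2 ± 14.2 CPM with sham LPS, a rise of 2.92 ± 0.43 (edgeR adjusted p = 0.000163). Ccl2 reached 241 ± 127 CPM with irradiated LPS against 13.8 ± 4.42 CPM with irradiated PBS (4.13 ± 0.44, edgeR adjusted p = 7.44e-06). Ccl2 thus rose with LPS in sham rats, where Ccr2 fell. Ccl7 rose by 2.80 ± 0.42 in sham and 4.45 ± 0.44 in irradiated rats (edgeR adjusted p = 0.000154 and 2.64e-06). Ccl12 was not called in any comparison, its LPS changes being 2.28 ± 1.03 and 2.29 ± 1.02. Cx3cr1, the fractalkine receptor of microglia, fell in all 4 comparisons, by 0.90 with irradiation under PBS. Cxcr2, the receptor of neutrophil chemokines, was at 91.3 ± 21.7 CPM with irradiated LPS against 3.01 ± 0.558 CPM with irradiated PBS (4.92 ± 0.39, edgeR adjusted p = 1.19e-07). Cxcr3 was the chemokine receptor called in the difference of LPS responses (-2.27 ± 0.38, edgeR adjusted p = 0.00582), rising with LPS in sham rats by 2.06 and changing by -0.21 in irradiated rats.

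The beta partners of the member integrins were called in part with their alpha subunits. Itgb1, the partner of Itga4, was not called in any comparison and ranged from a mean of 177 to 276 CPM. Itgb2, the partner of Itgal, fell by 0.29 with irradiation under PBS (edgeR adjusted p = 0.00421), where Itgal rose 3.03-fold, and rose by 0.25 with LPS in irradiated rats (edgeR adjusted p = 0.00681), where Itgal was not called. Itgb7, the other partner of Itga4, was at 1.27 ± 0.364, 3.20 ± 2.32, 7.62 ± 4.18 and 2.67 ± 1.32 CPM in sham PBS, sham LPS, irradiated PBS and irradiated LPS. Itgb7 rose with irradiation under PBS (2.57 ± 0.50, edgeR adjusted p = 0.00102), as Itga4 did, and was not called under LPS (-0.28). It fell with LPS in irradiated rats (-1.53 ± 0.47), as Itga4 did, but rose with LPS in sham rats (1.33 ± 0.49), where Itga4 fell, the 2 Itgb7 responses having a difference of -2.85 ± 0.68 (edgeR adjusted p = 0.047). Of 17 tested integrin genes outside the members, 6 were higher and 3 lower with LPS in sham rats, 4 and 3 with LPS in irradiated rats, 4 and 3 with irradiation under PBS, and 4 and 4 under LPS. Itgax, the alpha subunit CD11c, rose from 8.31 ± 1.84 CPM with sham PBS to 109 ± 27.3 CPM with irradiated PBS (3.71 ± 0.24, edgeR adjusted p = 3.35e-08) and stood at 312 ± 48.7 CPM with irradiated LPS. Itgav, a fibronectin and vitronectin receptor subunit, rose with LPS in sham rats by 0.82 and changed by -0.25 in irradiated rats, the difference being -1.07 ± 0.16 (edgeR adjusted p = 0.00199).

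Among 8 tested integrin ligands other than Icam1, 1 was higher and 1 lower with LPS in sham rats, 2 and 2 in irradiated rats, 1 and 3 with irradiation under PBS, and 2 and 4 under LPS. Vcam1, the ligand of the alpha 4 integrins, was at 22.7 ± 8.58 and 39.0 ± 11.1 CPM in sham rats (0.78 ± 0.29, edgeR adjusted p = 0.0506) and at 27.8 ± 9.92 and 111 ± 18.9 CPM in irradiated rats (1.99 ± 0.29, edgeR adjusted p = 7.15e-05). Vcam1 was raised by irradiation under LPS (1.5 ± 0.29, edgeR adjusted p = 0.000862), a comparison in which Icam1 was not called. Icam2, a further LFA-1 ligand, was called for irradiation and not for LPS, whereas Icam1 was called for LPS and not for irradiation. Icam2 rose 2.11 ± 0.24 with irradiation under PBS (edgeR adjusted p = 4.56e-06) and changed by -0.11 ± 0.24 with LPS in sham rats (edgeR adjusted p = 0.775). The junctional ligands F11r and Jam2 fell with irradiation under PBS, by 1.54 and 2.24.

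Of 16 tested genes of the integrin activation machinery 4 were higher and 4 lower with LPS in sham rats, 3 and 5 in irradiated rats, 3 and 2 with irradiation under PBS (against 11.5% and 9.91% of all genes) and 4 and 3 under LPS. Their median log2 fold changes were 0.18, -0.0046, 0.12 and -0.05 in that order, against medians between -0.02 and 0.01 over all genes. Cytip, which restrains integrin activation through cytohesin-1, fell with LPS in sham rats by 2.42 and rose by 1.25 and 2.67 with irradiation under PBS and LPS. The same directions were called for Ccr2 and Itga4. Rassf5, an effector of Rap1, rose with LPS by 0.85 in sham and 0.67 in irradiated rats. Of 8 tested selectin genes, 2 were higher and 1 lower with LPS in sham rats, 4 and 2 in irradiated rats, 1 and 1 with irradiation under PBS and 4 and 1 under LPS. Selplg, the P-selectin ligand, fell by 1.01 with irradiation under PBS.

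Around Cd44 and the matrix members fewer genes were measurable. Of 17 hyaluronan genes, 9 were tested; the synthases Has1, Has2 and Has3 did not pass the count filter. Among the 9, 1 was higher and 0 lower with LPS in sham rats by edgeR (1 lower at an unadjusted p below 0.05), 1 and 3 in irradiated rats, and 3 and 1 in each irradiation comparison. Cemip2, a cell-surface protein linked to hyaluronan breakdown, rose as Cd44 did, from 1.01 ± 0.766 CPM with sham PBS to 24.0 ± 3.86 CPM with irradiated LPS, and was called higher in all 4 comparisons. Stab1, a scavenger receptor that binds hyaluronan, rose with irradiation under PBS (1.94 ± 0.30) and fell with LPS in irradiated rats (by 0.88). Of 9 tested partners of versican and fibronectin, 4 were higher with LPS in sham rats and 3 in each other comparison of groups, with 0 lower by edgeR, adjusted or not. The whole list summed to only 6.48 to 8.39 CPM with sham PBS, so a fall from that group could hardly be called. Thbs1, thrombospondin-1, reached 212 ± 99.9 CPM with irradiated LPS against 2.45 ± 2.55 CPM with irradiated PBS. Lgals3, galectin-3, rose from 5.10 ± 0.732 CPM with sham PBS to 101 ± 30.2 CPM with irradiated PBS (4.31 ± 0.31, edgeR adjusted p = 1.29e-07).

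Other genes known as monocyte markers, 27 of them tested, were mostly higher after irradiation: 22 with PBS and 22 with LPS, at medians of 1.95 and 2.11, with none lower by edgeR even at an unadjusted p below 0.05. Genes of this list near the floor with sham PBS, such as Ly6c, could hardly be called lower than there, which limits these counts. With LPS, 8 were higher and 2 lower in sham rats (median 1.25), and 13 and 1 in irradiated rats (median 0.37). Ly6c, which marks classical monocytes, stood at 2.03 ± 2.29 CPM with sham PBS, 7.53 ± 4.07 CPM with sham LPS, 12.4 ± 6.57 CPM with irradiated PBS and 70.6 ± 23.4 CPM with irradiated LPS. Ly6c rose with irradiation under both injections (2.67 ± 0.70 and 3.22 ± 0.65, edgeR adjusted p = 0.0137 and 0.00204) and with LPS in irradiated rats (2.50 ± 0.63, edgeR adjusted p = 0.00747). Spn, the sialophorin CD43, followed Ccr2 and Itga4: 16.9 ± 1.83 CPM with sham PBS, 6.18 ± 3.35 CPM with sham LPS, 78.8 ± 6.93 CPM with irradiated PBS and 49.5 ± 10.0 CPM with irradiated LPS. Treml4, a marker of non-classical monocytes, also fell with LPS in sham rats (-2.56 ± 0.63) and rose with irradiation under PBS (1.98 ± 0.55, edgeR adjusted p = 0.0136). Gda and Clec4e were called higher in all 4 comparisons, as were Cd44 and Vcan.

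Markers of other cell types moved between the same groups, and their part in the members' changes was not tested. Summed over 28 genes, the other monocyte markers ran from 279 to 322 CPM with sham PBS, 277 to 535 with sham LPS, 976 to 1100 with irradiated PBS and 1710 to 2397 with irradiated LPS. The microglial sum over 14 genes ran from 55144 to 60320, 46999 to 51784, 28800 to 36359 and 22765 to 29111 CPM in the same order; 10 of its 13 tested genes were lower and 0 higher in each irradiation comparison by edgeR (1 higher at an unadjusted p below 0.05). Of the 14, Siglech did not pass the count filter, and the other 13 markers of the labelled cell type did. The sum over 12 markers of border-associated macrophages ran from 411 to 481, 484 to 1083, 1379 to 1725 and 3185 to 4382 CPM, with 11 of 12 higher in each irradiation comparison. Single genes of this list did not share the higher sums with LPS. In sham rats LPS raised 3 and lowered 1 (median log2 fold change 0.02), and in irradiated rats it raised 3 and lowered 4 (median -0.31). For T and NK cells, 17 of 21 tested markers were higher with irradiation under PBS and 15 under LPS, the sums being 157 to 210, 147 to 325, 389 to 558 and 774 to 1322 CPM. Cd3e, the T cell receptor subunit, had means of 0.0857 CPM with sham PBS and 2.67 CPM with irradiated PBS. The sham PBS mean is below the level of 3 counts in those libraries, 0.138 to 0.182 CPM, so no fold is read from it. Cd3e met the count filter through other groups than sham PBS. Genes this near the floor with sham PBS could hardly be called lower than there. This limits the counts of higher and lower calls in the marker lists. Dendritic cell markers summed to 18.8 to 26.7, 14.1 to 21.9, 57.5 to 94.1 and 62.5 to 96.1 CPM, with 5 of 8 higher in each irradiation comparison. Neutrophil markers rose with LPS in irradiated rats in 10 of 11 tested genes, and sums were 323 to 405, 248 to 302, 231 to 308 and 409 to 2480 CPM. With irradiation under PBS 1 was higher and 1 lower. Under LPS 9 were higher and 0 lower by edgeR (1 lower at an unadjusted p below 0.05). Mpo and Prtn3 were at 0 in all libraries. B cell markers summed to between 24.0 and 50.3 CPM in all groups. Of 7 tested B cell markers, 1 was higher and 1 lower with irradiation under PBS, and 2 and 1 under LPS, at medians of 1.51 and 2.12. At an unadjusted p below 0.05 by edgeR, 4 were higher under PBS and 5 under LPS, with 1 lower in each. Endothelial and mural markers summed to 377 to 465 CPM with sham PBS and 176 to 231 CPM with irradiated PBS, and of 7 tested genes 3 were lower and 1 higher with irradiation under PBS and 4 and 2 under LPS. Itgal and Itga4 are also expressed by lymphocytes, and Icam1 by endothelial cells.

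**Figure D3:**
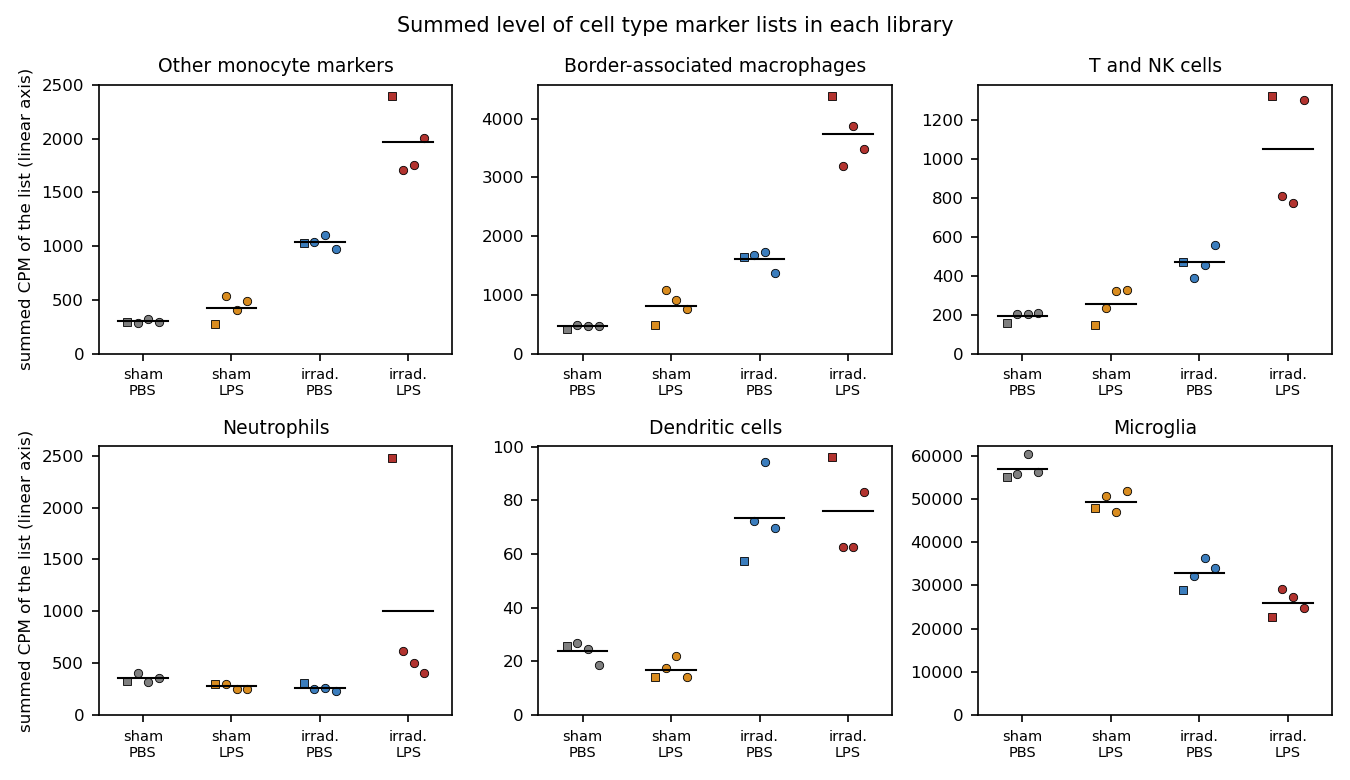
Summed TMM-scaled CPM of marker lists (vertical axes, linear from 0) in the 4 libraries of each group; bars mark group means and squares the libraries numbered 1. Monocyte, border-associated macrophage and T and NK cell markers are higher in both irradiated groups, and microglial markers are lower. Neutrophil markers are highest in the irradiated LPS group, where library 1 stands at 2480 CPM.

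The members varied together between groups more than within them. Over the 16 libraries, the 28 pairs of members had a median Pearson r of 0.55 (log2 CPM), from -0.49 to 0.95, with 16 pairs above 0.5 and 5 below 0. After the group means were subtracted, the median was 0.23, from -0.01 to 0.70, with 4 pairs above 0.5. Those 4 were Vcan with Plac8 (0.70), Ccr2 with Itga4 (0.60), Ccr2 with Vcan (0.54) and Icam1 with Fn1 (0.53). Vcan was near the floor in sham PBS 2 (0 counts) and irradiated PBS 2 (10 counts), where Plac8 was also the lowest of its group. The r of Vcan with Plac8 leans on these libraries. These values describe 16 libraries that share groups, depth and marker content, and they carry no test. Members were also set against the summed markers of each cell type, microglia among them, within groups, and 15 of 96 such pairs had r above 0.5. Among leukocyte and macrophage markers, Cd44 had 0.67 with those of T and NK cells and 0.56 with those of border-associated macrophages, Plac8 had 0.61 and Vcan 0.57 with those of B cells, and Vcan had 0.55 with those of T and NK cells. Icam1 had 0.54 and Cd44 0.501 with those of dendritic cells, and Itgal had 0.53 with those of border-associated macrophages. Among neural and red cell markers, Ccr2 had 0.71 with those of astrocytes and 0.57 with those of red cells, and Itga4 had 0.71 with those of neurons and 0.65 with those of oligodendrocytes. Itgal had 0.66 with those of oligodendrocyte precursors, and Fn1 had 0.55 and Itga4 0.53 with those of red cells. Irradiated LPS 1, which stood apart in neuronal, oligodendrocyte and red cell sums, was also the highest of its group in Ccr2, Itga4 and Fn1. Irradiated PBS 1, apart in neuronal and oligodendrocyte sums, was the highest of its group in Itga4. These r values were not computed without those libraries. The part of these cell types in the members' spread was not tested.

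**Figure D4:**
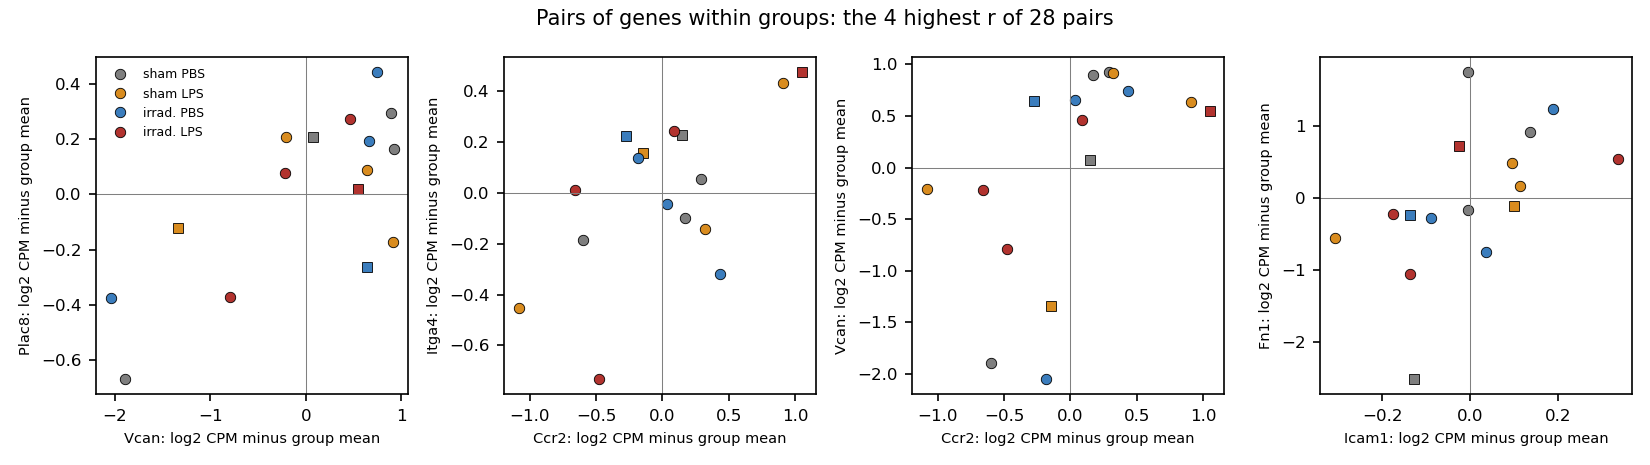
Deviations of log2 CPM from the group mean for the 4 pairs of members with the highest r, 1 point per library (n = 16), both axes in log2 units; squares mark the libraries numbered 1. Ccr2 and Itga4 deviate together within groups (r = 0.60), as do Vcan and Plac8 (r = 0.70). The latter leans on sham PBS 2 and irradiated PBS 2, where Vcan rests on 0 and 10 counts.

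For each member, the 3 genes with the highest Pearson r over the 16 libraries were sought among the 7948 genes whose log2 CPM averaged 3 or more. Ccr2 was nearest to Spn, RT1-DOa and Carhsp1 (each 0.96), and Itga4 to Lilra5 (0.98), Fam214a (0.97) and Spn (0.97). Itgal was nearest to Rps24, Dok3 and Mboat1 (each 0.97), and Cd44 to Gpr171, Itgax and Msr1 (each 0.98). Icam1 had the closest neighbours of the 8, Phc2, Il4r and Sbno2 (each 0.99). Vcan was nearest to Gzmbl2 (0.97), Chi3l1 (0.96) and Samsn1 (0.95), and Plac8 to Morf4l2 (0.95), Nop58 (0.94) and Nfkbia (0.94), the latter an inhibitor and target of NF-kB. Fn1 was nearest to the NF-kB subunit gene Nfkb2 (0.93), to Timp1 (0.92) and to Rap1gap2 (0.89). The groups' means enter these values; within groups r for Ccr2 and Spn was 0.75.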

How the data were processed

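The authors deposited read counts per Ensembl gene identifier, 1 file per library, and a table of the same counts by gene symbol; of 349472 values compared between them, 0 differed. Per the submitters' processing notes, FastQC 0.11.9, fastp 0.23.2 and HTSeq 2.0.2 were used with the mRatBN7.2 build; the sources used here name no aligner, annotation release or strand setting, so overlapping antisense genes cannot be told apart. Of 30560 identifiers, 6518 have no symbol (1.85% to 2.28% of a library's counts); they stayed in the fit. The members and lists (263 of 269 list genes found) were chosen with earlier results of these data known.

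The deposited counts were tested with edgeR 4.0.16 (R 4.3.3): filterByExpr (13608 genes), TMM factors (0.918 to 1.12), 1 coefficient per group over all 16 libraries, robust quasi-likelihood tests (common biological coefficient of variation 0.289), called at an adjusted p below 0.05. Standard errors are the log2 fold change over the square root of F, and correlations used log2 CPM with a prior count of 2. Named genes are the 8 members, up to 3 called genes with the smallest p per pathway list and comparison, Ccl2, Ccl7, Ccl12, Itgb1, Itgb2, Itgb7, Vcam1 and Icam2, and the 3 genes nearest to each member; genes beyond these (Ly6c, Treml4, Cd3e, the hyaluronan synthases and single cell type markers) were chosen after their values were seen. Alternatives were DESeq2 1.42.0, limma 3.58.1 voom with sample weights, other scalings, filters, tables and sets of libraries, a null of a 1.5-fold change and a replicate block; 28 settings in all. The script was tested on simulated counts. Promoter windows are RefSeq's on GRCr8; 2 members, Itgal and Fn1, had no window in the table used.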

Additional observations from a re-analysis of the deposited data

Results flagged for a closer look

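In each of 32 groups of 4 libraries (8 members, 4 groups), the highest or lowest library was set against the others by Dixon's test. In 3 of the 32 a library stood apart; chance alone gives about 1 in 20 groups. Icam1 was lowest in sham LPS 4, at 267 CPM against 353 to 358 CPM in the other 3. Vcan was lowest in irradiated PBS 2, at 0.555 CPM against 4.04 to 4.33 CPM. Fn1 was highest in irradiated PBS 3, at 14.2 CPM against 3.55 to 5.10 CPM.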

How the results depend on the processing

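Of 1112 values of the 40 results on single members under the alternatives, 1090 kept their direction and side of the threshold, 10 lost the call, 7 gained it and 5 changed sign; 29 of the 40 results kept both under every alternative that gave a value. All that changed sign were uncalled: the difference of LPS responses for Icam1 was -0.0091 with library totals alone and -0.052 to 0.14 when single libraries were left out, that for Cd44 was -0.044 to 0.35, and the sham LPS change of Itgal was -0.42 to 0.0076. Against a fold change of 1.5, LPS in sham rats gave 937 calls (4031 against no change), 1142 for LPS in irradiated rats (4277), 831 and 1270 for irradiation under PBS and LPS (2914 and 3771) and 23 for the difference of responses (171). The last count was 438 by DESeq2, 98 without both irradiated libraries numbered 1, and 103 to 191 when single libraries were left out. Members lower with LPS in irradiated rats numbered 2 without both irradiated libraries numbered 1, 0 against a fold change of 1.5, and 1 to 2 when single libraries were left out. With library totals in place of TMM, the median of all genes shifted by 0.16 for irradiation under PBS (2331 higher and 725 lower, against 1566 and 1348) and by -0.12 for LPS in irradiated rats (1784 and 2768, against 2309 and 1968), and the difference of responses had 63 higher and 162 lower (83 and 88 with TMM); the members' counts of calls did not move. Deviations of same-numbered libraries of different groups had r from -0.09 to 0.40 (24 pairs, median 0.09, against -0.03 for other numbers). Since 10 of the 24 pairs, not all, were above 0.1 and the labels name no shared litter or day, the numbers were not taken as pairs, although 11 of 16 libraries correlated best with their own number, a hint from the data that numbers share something. With the replicate block, 4168, 4446, 3038 and 3875 genes were called in the 4 comparisons of groups and 221 in the difference of responses, and the members' counts of calls stayed as they were. Low counts limit Vcan and Fn1 with sham PBS.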
